A study of Mus musculus with 21 samples.

Results

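The transcripts of 10 glycolysis enzyme genes were followed through mouse sperm formation. The genes were chosen by name, 10 of the 24456 genes in the deposited count files, and all 10 were found in each of the 21 libraries. They cover 6 steps of the pathway. Phosphoglycerate kinase is encoded by *Pgk1* and *Pgk2*, glyceraldehyde-3-phosphate dehydrogenase by *Gapdh* and *Gapdhs*, lactate dehydrogenase by *Ldha* and *Ldhc*, and enolase by *Eno1* and *Eno4*. *Hk1* encodes hexokinase 1 and *Aldoart1* a testis aldolase of the aldolase A type. In each pair the first name is the form of body cells and the second the form of male germ cells. *Aldoart1* was set against *Aldoa*, which is not one of the 10, and *Hk1* has no partner here because its testis transcripts share one gene row with its somatic transcripts.

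Glycolysis breaks glucose down to pyruvate and lactate and yields ATP without oxygen. The sperm tail makes ATP locally, with germ-cell forms of several glycolytic enzymes bound to the fibrous sheath, a cytoskeletal sleeve of the principal piece. *Pgk2* is an intronless retrocopy of the X-linked *Pgk1*, and the X chromosome is silenced in male meiosis. *Gapdhs* and *Ldhc* are also known for their germ-cell expression, and their loss is known to impair sperm motility and male fertility.

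RNA came from purified germ cell fractions of male mice of 2 genotypes. *H2al2* WT mice are the controls, and *H2al2* KO mice lack the gene of H2A.L.2, a histone variant of late spermatids. Pachytene spermatocytes, which are in meiotic prophase, round spermatids, which are haploid and still transcribe, and condensing spermatids, which pack their nucleus, were each sequenced in 3 libraries of either genotype. Spermatozoa were sequenced in 2 *H2al2* WT libraries and 1 *H2al2* KO library. The wild-type round spermatids are described by the study as independent biological replicates. For the other groups the sources used here do not say whether replicates came from separate animals, nor do they give age, strain, the pooling of animals or the making of the allele, so p-values measure only the spread between these libraries.

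Counts on genes ranged from 2772995 to 8201682 per library, with a median of 6872271, and were lowest in spermatozoa. The files name no row *H2al2*. RefSeq gives *H2afb1* as an older symbol both of *H2al2a*, the gene of H2A.L.2, and of *H2ab1*, and which of them the row *H2afb1* counts is not given in the sources used here, so it is a limited check of the labels. It averaged 206 normalized CPM (counts per 1000000 scaled with TMM factors over the 21 libraries) in *H2al2* WT round spermatids and 23.8 in *H2al2* KO round spermatids, and 30.5 against 4.28 in pachytene spermatocytes. Spermatocyte markers summed to 1747 to 2815 normalized CPM in the 6 pachytene libraries and to at most 1023 in any later library, and round spermatid markers to 1377 to 1620 in round spermatids and at most 954 elsewhere. Wild-type round spermatid replicates 2 and 3 were closer to each other than any other pair, with a mean chi-square per gene of 1.06 over genes with 100 to 1000 counts, but differed beyond counting noise over the 10 genes, with a mean of 2.06. They were kept apart, and summed as an alternative. The single *H2al2* KO spermatozoa library stood apart, with a macrophage marker sum of 3483 normalized CPM against 704 and 749 in *H2al2* WT spermatozoa.

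The pairs differ in where they lie in the genome (GRCm38, the assembly of mm10). *Pgk1* spans 11 exon blocks at chrX:106187100-106203699 on the plus strand, and *Pgk2* is a single exon at chr17:40207015-40208640 on the minus strand. *Aldoart1* is also a single exon, at chr4:72850583-72852634 on the minus strand. *Ldha*, at chr7:46841475-46855627, and *Ldhc*, at chr7:46861203-46878142, follow each other on the plus strand with 5575 bases between them. *Gapdh* lies at chr6:125161715-125166467 and *Gapdhs* at chr7:30729775-30743681, both on the minus strand. *Eno1* lies at chr4:150236721-150248879 and *Eno4* at chr19:58943425-58971421, both on the plus strand, and *Hk1* at chr10:62268855-62379908 on the minus strand.

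Promoters are shown for the kinase pair, for the neighbouring dehydrogenase pair and for *Gapdhs*, because these genes followed different time courses. Each lies within the 250 bases before a RefSeq start (GRCm38.p6) and is printed 5′ to 3′ on the strand of its gene, with CpG dinucleotides in capitals. For *Pgk2* and *Ldhc* the last 31 and 60 of these bases belong to a longer GENCODE transcript model and are not printed.
Pgk1, chrX:106186850-106187099, plus strand: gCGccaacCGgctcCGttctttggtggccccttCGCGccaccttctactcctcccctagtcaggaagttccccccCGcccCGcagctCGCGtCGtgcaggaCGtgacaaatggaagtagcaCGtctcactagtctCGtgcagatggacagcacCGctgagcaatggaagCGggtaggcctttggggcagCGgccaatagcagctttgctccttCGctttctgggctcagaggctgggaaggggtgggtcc
Pgk2, chr17:40208641-40208859, minus strand: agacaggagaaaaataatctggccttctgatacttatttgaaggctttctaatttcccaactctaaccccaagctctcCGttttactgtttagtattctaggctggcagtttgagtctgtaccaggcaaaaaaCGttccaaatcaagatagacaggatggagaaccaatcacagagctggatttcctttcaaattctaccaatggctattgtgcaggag
Ldha, chr7:46845554-46845803, plus strand: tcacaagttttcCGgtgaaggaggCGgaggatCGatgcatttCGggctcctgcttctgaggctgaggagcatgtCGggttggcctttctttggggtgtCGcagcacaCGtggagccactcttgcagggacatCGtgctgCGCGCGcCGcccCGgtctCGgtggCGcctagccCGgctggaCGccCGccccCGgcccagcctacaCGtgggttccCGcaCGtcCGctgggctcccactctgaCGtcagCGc
Ldhc, chr7:46861013-46861202, plus strand: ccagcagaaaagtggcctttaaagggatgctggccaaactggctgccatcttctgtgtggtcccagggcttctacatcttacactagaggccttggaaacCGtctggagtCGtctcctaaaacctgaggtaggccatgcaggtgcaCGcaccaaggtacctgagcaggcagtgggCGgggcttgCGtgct
Gapdhs, chr7:30743682-30743931, minus strand: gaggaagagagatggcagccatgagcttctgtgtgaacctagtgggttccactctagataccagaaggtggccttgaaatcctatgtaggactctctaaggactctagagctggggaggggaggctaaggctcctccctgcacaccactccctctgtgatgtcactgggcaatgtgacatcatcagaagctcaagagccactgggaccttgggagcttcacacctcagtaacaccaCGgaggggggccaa

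Over the whole 250 bases, *Pgk1* had 17 CpG and *Pgk2* 3, where the median of 32851 mouse promoters was 6. The *Ldha* start shown had 25 CpG and its second start 9, and the *Ldhc* start shown had 8 and its second start 3. *Gapdhs* had 1 CpG at the start shown and 0 at its second start. *Gapdh* had 8. *Eno4* had 22 CpG, above the 9, 21 and 19 CpG of the *Eno1* starts. *Hk1* has a start with 14 CpG and another with 1. *Aldoart1* had no entry. On either strand, the cyclic AMP response element TGACGTCA was found before *Ldha*, 12 bases upstream of the start, and in 1.55% of all promoters. Its core TGACG, which lies within it, was found before *Ldha* and at 2 places before the RefSeq start of *Ldhc*, and in 17.8% of all promoters. Both *Ldhc* places reach into the bases of the longer GENCODE transcript model, so neither is complete in the sequence printed above. GGGCGG, a GC box, was found before *Pgk1*, *Ldha*, *Ldhc* and *Eno1* and in 32.7% of all promoters, ACGTG before *Pgk1* and *Ldha* and in 16.6% (ACGTG and TGACG can share bases), and GTTGCC before *Eno4* and in 10.4%. TATAAA was found in none of the member promoters and in 12.4% of all promoters. No match was found before *Pgk2*, *Gapdh*, *Gapdhs* or *Hk1*. These matches describe letters and not bound sites.

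The germ-cell forms *Pgk2* and *Gapdhs*, with *Hk1* and *Aldoart1*, rose between pachytene spermatocytes and round spermatids, 3.98-fold to 7.54-fold over both genotypes. *Ldhc* did not pass the test in either genotype at this step and was already the most abundant of the 10 in spermatocytes. Levels are in normalized CPM unless given per kilobase of exon.

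*Pgk2*, which makes the ATP-yielding kinase of the germ cell, measured 422, 417 and 256 in the 3 *H2al2* WT pachytene libraries and 1486, 1449 and 1452 in *H2al2* WT round spermatids. The *H2al2* KO libraries gave 275, 303 and 322 in pachytene spermatocytes and 1325, 1426 and 1324 in round spermatids. No round spermatid library overlapped a pachytene library. The log2 fold change from edgeR's quasi-likelihood test was 2.03 ± 0.18 (SE, 3 libraries a group) in *H2al2* WT (adjusted p = 4.5e-07 over all genes) and 2.16 ± 0.12 in *H2al2* KO (adjusted p = 4.2e-12).

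*Gapdhs*, whose enzyme is anchored to the fibrous sheath, measured 432, 480 and 188 in *H2al2* WT spermatocytes and 2049, 2025 and 2091 in round spermatids. In *H2al2* KO *Gapdhs* measured 232, 264 and 266, then 1985, 2096 and 1758. Its log2 fold change was 2.51 ± 0.27 in *H2al2* WT (adjusted p = 2.8e-06) and 2.91 ± 0.14 in *H2al2* KO (adjusted p = 5.9e-13), where it was the largest of the 10.

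*Hk1*, which phosphorylates glucose as it enters the pathway, measured 785, 865 and 488 and then 2770, 2771 and 2832 in *H2al2* WT, and 535, 539 and 597 and then 2886, 3081 and 2518 in *H2al2* KO. Neither genotype had stages that overlapped. *Aldoart1*, whose product splits fructose bisphosphate, measured 40.2, 42.2 and 28.8 and then 182, 243 and 235 in *H2al2* WT, and 33.3, 32.6 and 31.0 and then 183, 216 and 181 in *H2al2* KO. Its stages did not overlap either. The log2 fold changes were 1.99 ± 0.19 (adjusted p = 1.0e-06) and 2.32 ± 0.13 (adjusted p = 3.0e-12) for *Hk1* and 2.59 ± 0.22 (adjusted p = 3.4e-07) and 2.56 ± 0.13 (adjusted p = 9.8e-13) for *Aldoart1*, in *H2al2* WT and *H2al2* KO.

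Wild-type pachytene replicate 3 was below replicates 1 and 2 for each of these 4 genes, and the *H2al2* KO pachytene libraries lay nearer to it than to the other two. Elongating spermatid markers, a list of 7 genes with *Prm1* and *Tnp1*, were placed likewise. Their sum was 4824 in wild-type replicate 1, 4576 in the second and 1909 in the third, 2442 to 2715 in the *H2al2* KO pachytene libraries and 20587 to 27020 in round spermatids, and none of the 7 was at 0 in any group. The part of spermatid RNA in the pachytene values was not tested. Without wild-type replicate 3 the log2 fold changes of *Pgk2*, *Gapdhs*, *Hk1* and *Aldoart1* in *H2al2* WT were 1.82, 2.19, 1.78 and 2.44, and each was still called.

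**Figure D1:**
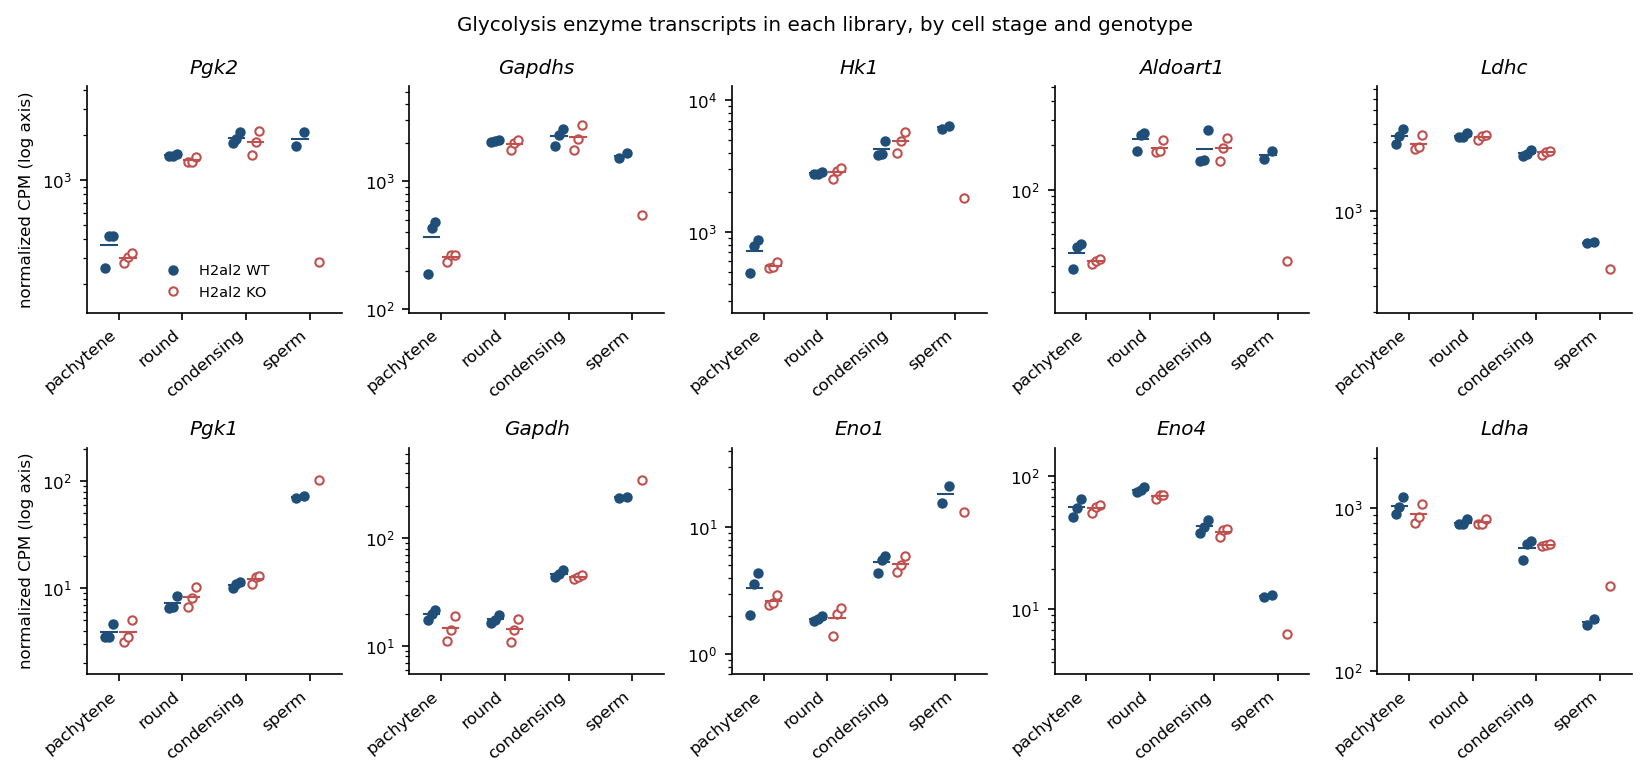
Normalized CPM (log axes, each panel with its own range) of the 10 genes in each of the 21 libraries, by stage, with *H2al2* WT as filled and *H2al2* KO as open circles and bars at group means. *Pgk2*, *Gapdhs*, *Hk1* and *Aldoart1* step up between pachytene spermatocytes and round spermatids, *Ldhc*, *Ldha* and *Eno4* fall later, and *Pgk1*, *Gapdh* and *Eno1* are highest in spermatozoa.

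The lactate dehydrogenases behaved otherwise. *Ldhc*, the germ-cell subunit, measured 3296, 3687 and 2902 in *H2al2* WT spermatocytes and 3479, 3285 and 3255 in round spermatids, ranges that overlap, and 2682, 2768 and 3351 against 3358, 3100 and 3330 in *H2al2* KO. Its log2 fold change was 0.04 ± 0.12 in *H2al2* WT (adjusted p = 0.77) and 0.13 ± 0.10 in *H2al2* KO (adjusted p = 0.24). That of *H2al2* KO was called without pachytene replicate 3 (0.22, adjusted p = 0.044) and with at least 10 counts in every library (0.24, adjusted p = 0.033). *Ldha*, the subunit of muscle, measured 1007, 1167 and 912 in *H2al2* WT spermatocytes and 846, 791 and 787 in round spermatids, a fall by 0.33 ± 0.14 on the log2 scale (adjusted p = 0.046). This call was lost without wild-type pachytene replicate 1 or 2 (adjusted p = 0.083 and 0.15), without any 1 of the wild-type round spermatid replicates (adjusted p = 0.071 to 0.13) and without condensing replicate 1 or 2 (adjusted p = 0.063 and 0.051), and *H2al2* KO gave -0.18 ± 0.10 (adjusted p = 0.11), which was called without *H2al2* KO pachytene replicate 1 (-0.27, adjusted p = 0.025) and with library size as the only scaling (-0.33, adjusted p = 0.0034).

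The other somatic forms had low counts in these cells, which may miss reads from stretches shared with other genes, as described below. *Pgk1* measured 3.47, 4.62 and 3.51 in *H2al2* WT spermatocytes, from 24 to 39 counts, and 8.45, 6.69 and 6.53 in round spermatids, with 5.09, 3.48 and 3.14 against 8.09, 10.3 and 6.62 in *H2al2* KO. No library overlapped between the stages. *Pgk1* rose by 0.92 ± 0.20 on the log2 scale in *H2al2* WT (adjusted p = 0.0011) and by 1.07 ± 0.24 in *H2al2* KO (adjusted p = 0.00041). *Gapdh* measured 17.5, 19.8 and 21.8 in *H2al2* WT spermatocytes and 19.5, 16.4 and 17.6 in round spermatids, with a log2 fold change of -0.12 ± 0.14 (adjusted p = 0.46), and -0.06 ± 0.19 in *H2al2* KO (adjusted p = 0.78). *Eno1* had only 13 to 15 counts per *H2al2* WT round spermatid library. It measured 3.59, 4.39 and 2.04 in *H2al2* WT spermatocytes and 2.01, 1.81 and 1.89 in round spermatids, a fall by 0.80 ± 0.30 on the log2 scale (adjusted p = 0.031) that was not called without wild-type pachytene replicate 1 or 2 (adjusted p = 0.076 and 0.15) or any 1 of the round spermatid replicates (adjusted p = 0.057 to 0.084), and that reached -0.47 ± 0.31 in *H2al2* KO (adjusted p = 0.17). *Eno4*, the enolase of the sperm tail, rose modestly, from 57.4, 67.4 and 49.7 to 75.4, 82.2 and 78.7 in *H2al2* WT, by 0.46 ± 0.13 (adjusted p = 0.0067), and by 0.28 ± 0.10 in *H2al2* KO (adjusted p = 0.019), where the call was lost without *H2al2* KO pachytene replicate 1 (adjusted p = 0.089). With library size as the only scaling *Eno4* was called in neither genotype (0.27 and 0.13, adjusted p = 0.078 and 0.28).

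In all, 6 of the 10 were called higher and 2 lower in *H2al2* WT round spermatids, and 6 higher and 0 lower in *H2al2* KO. Over all genes 34.4% were called higher and 35.9% lower in *H2al2* WT, and 36.5% and 38.4% in *H2al2* KO, of 14011 and 13877 genes tested. The median log2 fold change of the 10 was 0.69 in *H2al2* WT and 0.68 in *H2al2* KO, beside -0.016 and 0.00011 over all genes.

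Between round and condensing spermatids *Hk1* went on rising in both genotypes, *Pgk2* rose in *H2al2* KO, and *Gapdhs* and *Aldoart1* did not pass the test. *Pgk2* measured 1885, 1758 and 2096 in *H2al2* WT condensing spermatids and 1474, 1790 and 2130 in *H2al2* KO, all above the round spermatids of their genotype. Its log2 fold change was 0.42 ± 0.17 in *H2al2* WT (adjusted p = 0.057) and 0.42 ± 0.12 in *H2al2* KO (adjusted p = 0.0048), so only the second was called although both had the same size. The *H2al2* WT change was called without wild-type pachytene replicate 2 or 3 (adjusted p = 0.048 and 0.0045), which share its estimate of the spread. *Hk1* rose from 2770, 2771 and 2832 to 3920, 3848 and 4917 in *H2al2* WT, by 0.63 ± 0.19 (adjusted p = 0.014, and 0.052 without wild-type condensing replicate 3), and to 3948, 4927 and 5736 in *H2al2* KO, by 0.80 ± 0.12 (adjusted p = 2.1e-05).

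*Gapdhs* measured 2281, 1871 and 2563 in *H2al2* WT condensing spermatids, a range that spans that of round spermatids, with a log2 fold change of 0.15 ± 0.26 (adjusted p = 0.65), and 0.21 ± 0.13 in *H2al2* KO (adjusted p = 0.18). That of *H2al2* KO was called without *H2al2* KO condensing replicate 1 (0.34, adjusted p = 0.031). *Aldoart1* measured 158, 157 and 255 in *H2al2* WT, with a log2 fold change of -0.18 ± 0.20 (adjusted p = 0.48), and -0.01 ± 0.11 in *H2al2* KO (adjusted p = 0.96). Without wild-type condensing replicate 3, its highest library, *Aldoart1* fell by 0.46 (adjusted p = 0.046).

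*Ldhc*, *Ldha* and *Eno4* fell in condensing spermatids of both genotypes. *Ldhc* measured 2493, 2637 and 2396 in *H2al2* WT and 2582, 2463 and 2604 in *H2al2* KO, below each round spermatid library, and fell by 0.39 ± 0.12 (adjusted p = 0.020) and by 0.34 ± 0.10 (adjusted p = 0.0085). The *H2al2* WT call was lost without condensing replicate 1 or round replicate 1 or 2 (adjusted p = 0.054 to 0.071). *Ldha* fell to 596, 628 and 479 in *H2al2* WT, by 0.48 ± 0.14 (adjusted p = 0.010), and by 0.44 ± 0.10 in *H2al2* KO (adjusted p = 0.0011). *Eno4* fell to 37.6, 46.7 and 41.6 in *H2al2* WT, by 0.88 ± 0.13 (adjusted p = 0.00019), and by 0.87 ± 0.10 in *H2al2* KO (adjusted p = 1.5e-06).

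The somatic forms *Gapdh*, *Eno1* and *Pgk1* rose at the same step. *Gapdh* reached 43.9, 46.2 and 50.9 in *H2al2* WT and 45.7, 41.6 and 43.6 in *H2al2* KO, by 1.42 ± 0.13 (adjusted p = 5.1e-06) and 1.62 ± 0.17 (adjusted p = 3.0e-07) on the log2 scale. *Eno1* reached 5.53, 4.35 and 5.97 in *H2al2* WT, by 1.48 ± 0.30 (adjusted p = 0.0013), and rose by 1.44 ± 0.27 in *H2al2* KO (adjusted p = 0.00022). *Pgk1* reached 9.99, 11.3 and 11.1 in *H2al2* WT, by 0.60 ± 0.18 (adjusted p = 0.016), and rose by 0.57 ± 0.20 in *H2al2* KO (adjusted p = 0.020). The *Pgk1* calls were lost without wild-type condensing replicate 2 or round replicate 2 or 3 (adjusted p = 0.060 to 0.067) and without *H2al2* KO condensing replicate 1 or 2 or round replicate 1 or 3 (adjusted p = 0.051 to 0.12).

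Sertoli cell markers moved in the same direction. The sum of 8 markers, with *Clu*, *Wt1* and *Sox9*, was 28.9 to 41.7 in *H2al2* WT round spermatids and 338 to 437 in condensing spermatids, and 19.4 to 29.5 and 282 to 350 in *H2al2* KO, with none of the 8 at 0 in any group. *Clu* had 13511 of the Sertoli marker counts over the 21 libraries, against at most 2358 for any other, so the sum mostly follows 1 gene. Leydig cell markers (7 genes) went from 11.3 to 15.1 up to 147 to 232 in *H2al2* WT, and spermatocyte markers from 552 to 646 up to 838 to 1023. The Leydig sum was already 79.2 to 164 in *H2al2* WT pachytene spermatocytes and 25.3 to 106 in *H2al2* KO. It thus fell before it rose, unlike *Gapdh* and *Pgk1*. Peritubular myoid markers (6 genes) overlapped between the stages, at 330 to 337 and 306 to 414 in *H2al2* WT and 315 to 415 and 295 to 369 in *H2al2* KO. *Actg2* had 29232 of their counts over the 21 libraries, against at most 1492 for any other. In bulk samples a different make-up of cells and a different amount of RNA per cell cannot be told apart. The part of somatic cells in the rises of *Gapdh*, *Eno1* and *Pgk1* was not tested.

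Of the 10 genes, 4 were called higher and 3 lower in *H2al2* WT condensing spermatids, where 28.3% and 21.8% of all genes were called, and 5 higher and 3 lower in *H2al2* KO, where 29.7% and 24.5% were. The median log2 fold change was 0.28 in *H2al2* WT and 0.31 in *H2al2* KO, beside 0.043 and 0.029 over all genes.

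**Figure D2:**
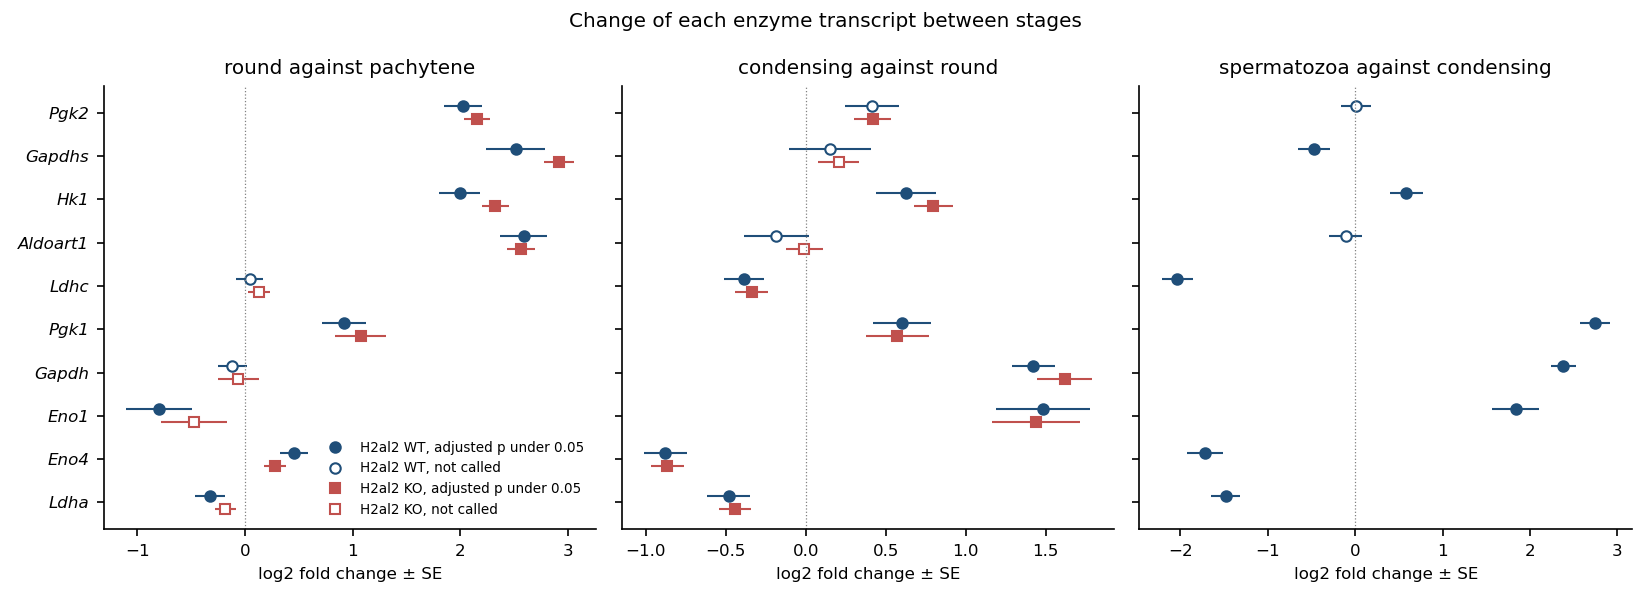
Log2 fold change ± SE of each gene at the 3 steps in *H2al2* WT (circles) and *H2al2* KO (squares), filled where the adjusted p was under 0.05 and with *H2al2* WT alone in spermatozoa. The 4 genes at the top change by 1.99 to 2.91 at the first step, and *Pgk1*, *Gapdh* and *Eno1* rise by 1.83 to 2.74 at the last.

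In spermatozoa the order of the forms changed again, with *Hk1* first and *Ldhc* far below its earlier level. *Hk1* measured 6404 and 6069 in the 2 *H2al2* WT libraries, above the 3 condensing libraries, a rise by 0.59 ± 0.19 on the log2 scale (adjusted p = 0.0097) that was not called without wild-type condensing replicate 1 or 2 or either spermatozoa replicate (adjusted p = 0.061 to 0.10). *Ldhc* fell to 608 and 595, by 2.03 ± 0.18 (adjusted p = 1.8e-09), *Ldha* to 190 and 208, by 1.48 ± 0.17 (adjusted p = 7.1e-08), and *Eno4* to 12.4 and 12.7, by 1.72 ± 0.20 (adjusted p = 1.8e-07). These 3 genes had no overlap with condensing spermatids.

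*Pgk2* measured 2091 and 1688, 1 within and 1 below the range of the condensing libraries, with a log2 fold change of 0.01 ± 0.17 (adjusted p = 0.97). *Aldoart1* measured 184 and 162, within the condensing range, with a log2 fold change of -0.11 ± 0.19 (adjusted p = 0.61). *Gapdhs* measured 1655 and 1524 and fell by 0.47 ± 0.18 (adjusted p = 0.026), a call lost without wild-type condensing replicate 1 or either spermatozoa replicate (adjusted p = 0.082 to 0.22). *Pgk1* rose to 72.1 and 69.5, by 2.74 ± 0.17 (adjusted p = 9.9e-12), *Gapdh* to 237 and 243, by 2.38 ± 0.14 (adjusted p = 5.5e-12), and *Eno1* to 21.2 and 15.5, by 1.83 ± 0.27 (adjusted p = 3.1e-06). Each was above all condensing libraries. In this comparison 4 of the 10 were called higher and 4 lower, where 36.6% and 35.8% of 15116 genes were.

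Macrophage markers and the epididymal gene *Crisp1* were present in the spermatozoa libraries. The 6 macrophage markers summed to 704 and 749 in *H2al2* WT spermatozoa against 25.1 to 32.0 in condensing spermatids, and 6 epididymal markers to 1501 and 1591 against at most 3.16, but 1 of them, *Crisp1*, made up nearly all of that sum, with 11317 counts over the 21 libraries against at most 124 for any other, and *Lcn5* and *Lcn8* stayed at 0. In the *H2al2* KO spermatozoa library 5 of the 6 epididymal markers were at 0. Among the macrophage markers *Lyz2* had 11147 counts over the 21 libraries, against at most 1834 for any other. The part of these cells in the rises of *Pgk1*, *Gapdh* and *Eno1* was not tested. The *H2al2* KO spermatozoa library gave 280 for *Pgk2*, 545 for *Gapdhs*, 1822 for *Hk1* and 32.6 for *Aldoart1*, each below both *H2al2* WT libraries, and 103 for *Pgk1*, 348 for *Gapdh* and 331 for *Ldha*, each above them. *Eno1*, a somatic form, was lower at 13.2, as were *Ldhc* at 393 and *Eno4* at 6.46. Its elongating spermatid markers summed to 10200 against 29635 and 33645. With 1 library this difference has no replicate check and was not tested.

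**Figure D3:**
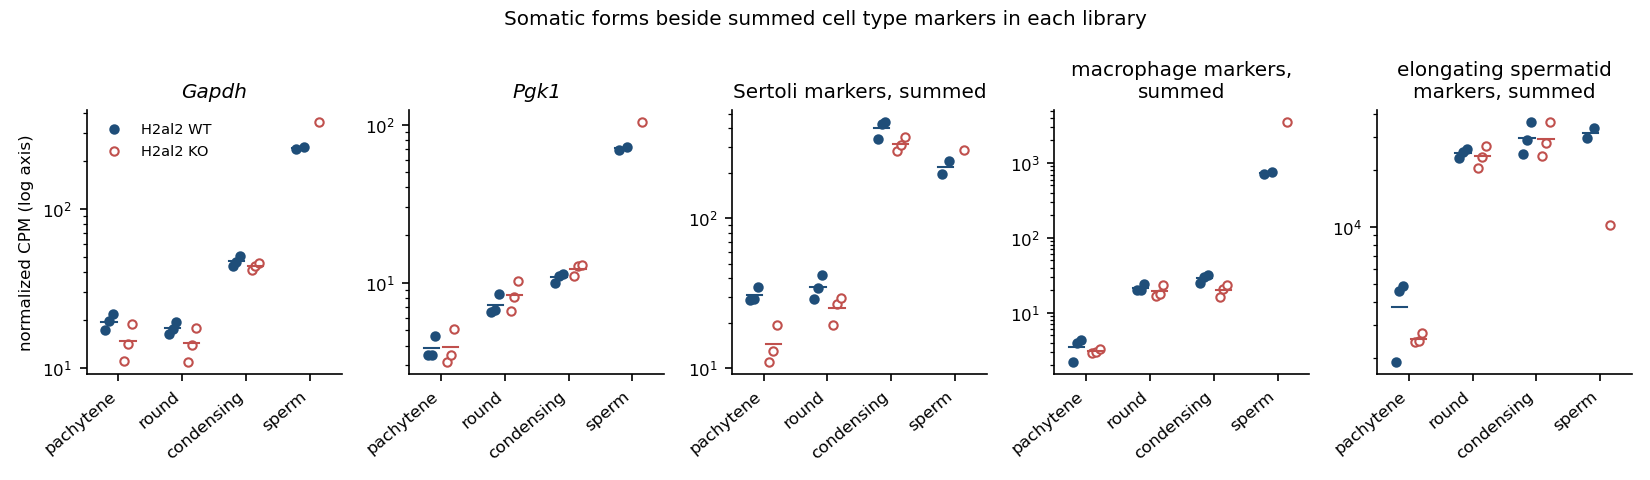
Normalized CPM (log axes) of *Gapdh* and *Pgk1* beside the summed markers of Sertoli cells, macrophages and elongating spermatids in each library, with *H2al2* WT filled and *H2al2* KO open. *Gapdh* and the Sertoli markers step up between round and condensing spermatids, and the *H2al2* KO spermatozoa library has the highest macrophage sum, 3483, and a low elongating spermatid sum, 10200.

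Set against each other per kilobase of exon, the germ-cell form exceeded the somatic form in every library of the 3 stages for *Pgk2*, *Gapdhs*, *Ldhc* and *Eno4*. In *H2al2* WT pachytene spermatocytes the ratio was 103 for *Pgk2* to *Pgk1* (range 80.3 to 134 over 3 libraries), 16.1 for *Gapdhs* to *Gapdh* (8.0 to 23.0), 4.43 for *Ldhc* to *Ldha* (4.37 to 4.53) and 14.0 for *Eno4* to *Eno1* (12.0 to 18.5). *Aldoart1* stayed below *Aldoa*, at 0.29 of it (0.26 to 0.32). Reads aligning to more than 1 place were not counted, and of the 75-base stretches of each transcript 67.5% in *Pgk1*, 76.1% in *Gapdh* and 65.4% in *Eno1* occur without a mismatch in another annotated gene, for *Gapdh* in 121 others, against 0% in *Pgk2* and *Ldhc*, 0.96% in *Gapdhs*, 3.73% in *Eno4* and 5% in *Ldha*. Reads from such stretches may be missing from the counts of *Pgk1*, *Gapdh* and *Eno1*, so their ratios may be too high, by an amount that was not measured. The reads were paired, and only single stretches were searched.

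Between pachytene spermatocytes and round spermatids the ratio moved towards the germ-cell form in all 5 pairs. The log2 difference, averaged over the genotypes, was 2.86 for *Gapdhs* to *Gapdh*, 1.12 for *Pgk2* to *Pgk1*, 0.97 for *Eno4* to *Eno1*, 0.80 for *Aldoart1* to *Aldoa* and 0.34 for *Ldhc* to *Ldha*. Each gave p = 0.005 in a two-sided exact permutation test within genotypes, the smallest that its 400 arrangements allow (p = 0.00625 after Benjamini-Hochberg adjustment over 10 stage comparisons). The *Ldhc* to *Ldha* ratio was 5.69 to 5.74 in *H2al2* WT round spermatids, the narrowest range of the 5 pairs there, and 4.37 to 4.53 in spermatocytes, with no overlap. *Aldoa* was itself higher in round spermatids, so its pair moved with a rise of both genes. It measured 121, 142 and 80.5 and then 368, 364 and 352 normalized CPM in *H2al2* WT. In *H2al2* KO *Aldoa* measured 91.1, 96.9 and 101 and then 369, 381 and 301.

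From round to condensing spermatids the ratio moved back for *Gapdhs* to *Gapdh*, by -1.37 on the log2 scale, and for *Eno4* to *Eno1*, by -2.32, with the rise of the somatic form described above in both cases and, for the enolases, the fall of *Eno4* by 0.88 and 0.87 (exact permutation p = 0.005, adjusted p = 0.00625). It moved on by 0.10 for *Ldhc* to *Ldha* (exact permutation p = 0.005, adjusted p = 0.00625, and 0.056 to 0.075 without any 1 of the wild-type round spermatid replicates). *Pgk2* to *Pgk1* changed by -0.19 (exact permutation p = 0.24, adjusted p = 0.24) and *Aldoart1* to *Aldoa* by -0.18 (exact permutation p = 0.13, adjusted p = 0.14). In *H2al2* WT spermatozoa *Pgk2* was 29.7 times *Pgk1*, *Gapdhs* 6.16 times *Gapdh* and *Eno4* 0.55 of *Eno1*, and in the *H2al2* KO spermatozoa library *Pgk2* was 3.04 times *Pgk1* and *Gapdhs* 1.46 times *Gapdh*. Reads not aligned uniquely were 15.4% and 15.5% of all counts in *H2al2* WT spermatozoa and 11.6% in the *H2al2* KO library. In the other libraries they were 3.70% to 5.03%, so the loss of shared reads may differ in spermatozoa, by an amount not measured.

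**Figure D4:**
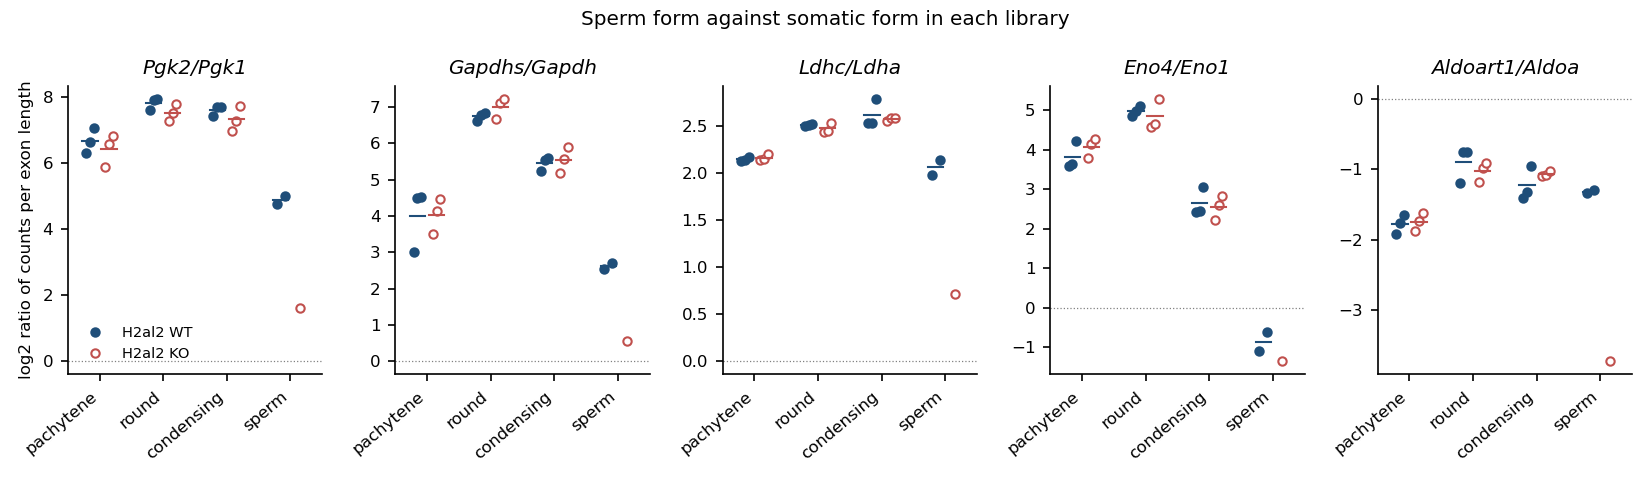
Log2 ratio of counts per exon length, germ-cell form over somatic form, in each library by stage, with *H2al2* WT filled, *H2al2* KO open, bars at group means and a dotted line at equal levels. The ratio of *Gapdhs* to *Gapdh* rises by 2.86 and falls back by 1.37, and only *Aldoart1* to *Aldoa* stays below the line in every library of the first 3 stages.

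Per kilobase, the order of the 10 genes in *H2al2* WT pachytene spermatocytes was led by *Ldhc* (2405 ± 286 normalized CPM per kilobase, SD, n = 3), *Ldha* (543 ± 67.9), *Gapdhs* (228 ± 97.6), *Pgk2* (224 ± 58.1) and *Hk1* (154 ± 42.9). *Gapdhs* and *Pgk2* overlapped, as did *Pgk2* and *Hk1*. In round spermatids *Ldhc* (2438 ± 88.7) was followed by *Gapdhs* (1280 ± 20.8), *Pgk2* (899 ± 12.6), *Hk1* (603 ± 7.69) and *Ldha* (426 ± 17.3), with no overlap between neighbours. *Ldha* had thus gone from the 2nd to the 5th place. In condensing spermatids the order of the first 5 was the same, with *Gapdhs* (1395 ± 217) and *Pgk2* (1176 ± 105) overlapping. *Eno1* was last in all 3 stages, at 0.94 ± 0.050 in round spermatids. The 10 genes together took 0.535% to 0.695% of the counts in *H2al2* WT spermatocytes, 0.997% to 1.04% in round spermatids and 1.14% to 1.24% in condensing spermatids.

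Over the 18 libraries of the 3 stages, 8363 genes had a mean of at least 10 normalized CPM, with *Pgk2* among them. Those closest to *Pgk2* by Pearson's correlation were *Gsg1* (r = 0.998), *4933411K16Rik*, *Tssk3*, *Ubl4b* and *Nbr1* (the fifth at r = 0.997). *Hk1* stood at place 54 (r = 0.992), *Gapdhs* at 55 (r = 0.992) and *Aldoart1* at 380 (r = 0.973), while *Ldhc* (r = -0.30), *Eno4* (r = -0.20) and *Ldha* (r = -0.74) lay far from it. Closest to *Pgk1* were *Lrba* (r = 0.966), *Ttc7*, *Pdpr*, *Cep170b* and *Pam* (the fifth at r = 0.963). Of the members with a mean of at least 10 normalized CPM, *Hk1* was nearest to *Pgk1* (r = 0.936), ahead of *Pgk2* (r = 0.904). *Pgk1* and *Eno1* were themselves below that mean, and *Eno1* was not compared. These correlations are a description over libraries that share stages and depth.

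*H2al2* KO was compared with *H2al2* WT within each stage. None of the 10 genes was called in pachytene, round or condensing spermatids by edgeR's quasi-likelihood test, none had an unadjusted p under 0.05, and none was called by the DESeq2 Wald test. Over all genes 0% of 12236 passed in the pachytene comparison, where 815 had an unadjusted p under 0.05, 0.0156% of 12804 in round spermatids and 0.00728% of 13734 in condensing spermatids. The called genes, named here after their values were seen, were *H2afb1* and *Sptbn4* in round spermatids and *H2afb1* in condensing spermatids.

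In pachytene spermatocytes the log2 fold changes of the 10 ran from -0.44 ± 0.26 for *Gapdhs* (adjusted p = 0.66) to 0.08 ± 0.27 for *Pgk1* (adjusted p = 0.92). In round spermatids they ran from -0.30 ± 0.17 for *Gapdh* (adjusted p = 0.93) to 0.21 ± 0.21 for *Pgk1* (adjusted p = 0.99). In condensing spermatids they ran from -0.15 ± 0.12 for *Eno4* (adjusted p = 0.90) to 0.19 ± 0.18 for *Hk1* (adjusted p = 0.93). The medians were -0.16, -0.045 and -0.015, beside 0.0068, -0.0037 and -0.0086 over all genes. With the replicate number as a block, which pairs the round spermatid libraries, 61 genes were called in round spermatids but 0 of the 10. Leaving out wild-type round replicate 1 raised that count to 264 genes and leaving out wild-type condensing replicate 2 raised the condensing count to 24, again with 0 of the 10.

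In the pachytene comparison 0 genes were called in each fit that left out 1 library, except that without wild-type replicate 3. Without wild-type pachytene replicate 3, which had the lowest elongating spermatid sum of 1909, 243 of 12555 genes were called and *Gapdhs* was lower in *H2al2* KO by 0.73 (adjusted p = 0.039). In the test of whether the *H2al2* KO effect differed between stages, 0% of 14479 genes were called for round against pachytene (1050 at an unadjusted p under 0.05) and 0% for condensing against round (407), and 0 of the 10 in either, none of them at an unadjusted p under 0.05. Without replicate 3 of each group the first of these called 731 genes, among them *Gapdhs* (0.87, adjusted p = 0.015) and *Hk1* (0.71, adjusted p = 0.015). In the isoform ratios, *H2al2* KO differed from *H2al2* WT by -0.28 for *Pgk2* to *Pgk1*, lower in each of 3 stages (-0.25, -0.30 and -0.28; exact permutation p = 0.074 over 8000 arrangements, adjusted p = 0.37), and by -0.02 to 0.12 for the other 4 pairs (adjusted p = 0.97).

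**Figure D5:**
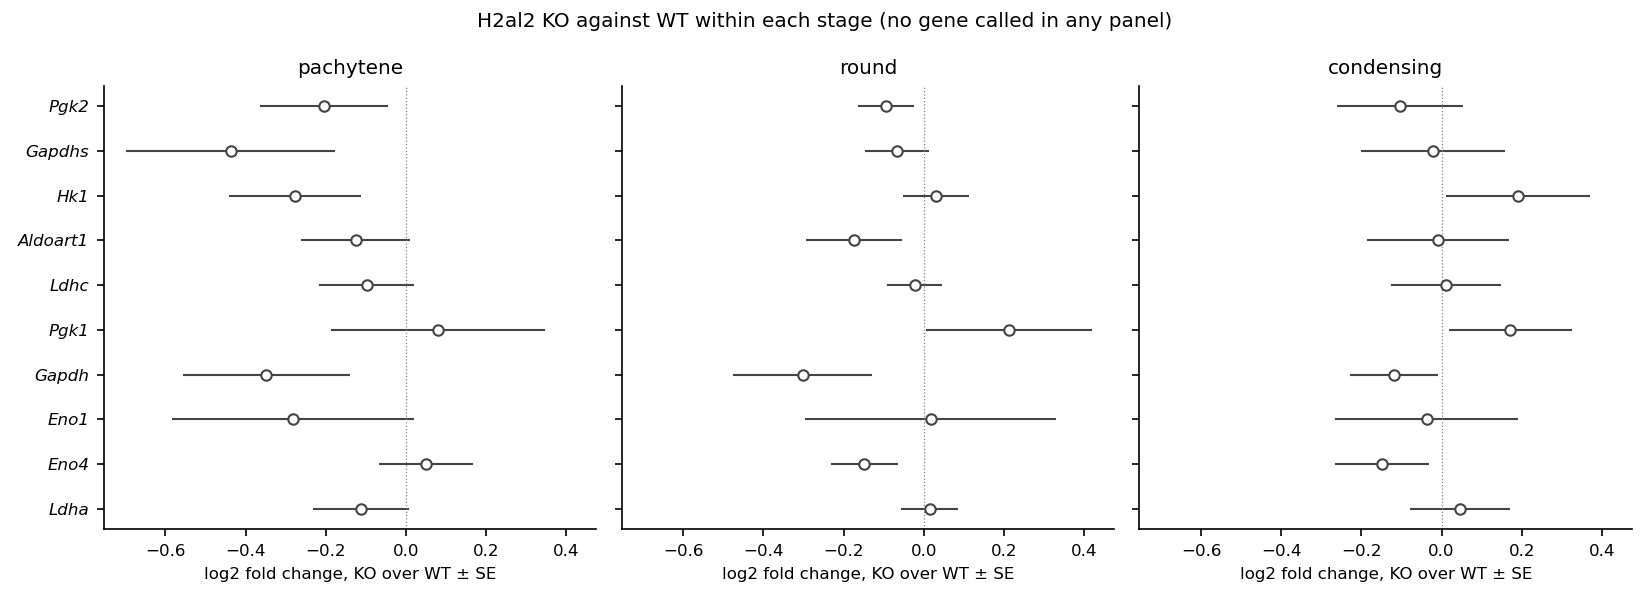
Log2 fold change ± SE of *H2al2* KO over *H2al2* WT for the 10 genes in each of 3 stages. All values lie between -0.44 and 0.21 and no gene was called.

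Other glycolysis genes were counted from a list of 24. At the step to round spermatids 19 were tested in *H2al2* WT, of which 11 were called higher and 3 lower, with a median log2 fold change of 0.63, where 34.4% and 35.9% of all genes were called, and 11 higher and 1 lower in *H2al2* KO with a median of 0.75, where 36.5% and 38.4% of all genes were. Among the larger rises in *H2al2* WT were those of *Eno1b*, a copy of *Eno1* (2.74), *Gpi1*, which converts glucose-6-phosphate (2.39), and *Aldoart2*, another testis aldolase (2.23), and in *H2al2* KO *Pkm*, pyruvate kinase (2.39), was among the first 4. At the step to condensing spermatids 9 were higher and 4 lower in *H2al2* WT, where 28.3% and 21.8% of all genes were, and 7 higher and 6 lower in *H2al2* KO, where 29.7% and 24.5% were. *Pfkl*, the liver phosphofructokinase (3.90 and 3.31), *Ldhb*, the heart lactate dehydrogenase subunit (3.33 and 3.86), *Hk2*, a hexokinase of muscle and fat (2.53 and 2.32), and *Pgam1*, a phosphoglycerate mutase (1.82 and 1.76), led the rises in *H2al2* WT and *H2al2* KO, beside the Sertoli marker sums given above. In spermatozoa 9 of 21 were higher and 8 lower, where 36.6% and 35.8% of all genes were. The rises were led by *Eno2* (4.50) and *Aldoc* (3.89), which are known from neurons, *Pfkl* (2.33) and *Hk3* (2.30), a hexokinase of leukocytes. These rises stand beside the macrophage sums given above. Counts were low for *Eno2*, *Aldoc* and *Hk3*, with 172, 317 and 438 over the 21 libraries, and for *Eno1b*, with 686.

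Genes that move glucose, lactate and pyruvate were split. Of the 10 tested of 12 listed, 3 were higher and 2 lower in *H2al2* WT round spermatids, near or below the 34.4% and 35.9% of all genes. *Slc2a3*, a glucose transporter, fell by 2.40 and *Slc16a1*, a lactate transporter, by 0.47, while *Slc16a7*, another monocarboxylate transporter, rose by 1.87 and *Mpc2*, a subunit of the mitochondrial pyruvate carrier, by 0.77. In *H2al2* KO 5 were higher and 2 lower, where 36.5% and 38.4% of all genes were, with *Emb* (2.29) among the largest changes. At the next step 3 were higher and 5 lower in *H2al2* WT, where 28.3% and 21.8% of all genes were. In *H2al2* KO 3 were higher and 4 lower, where 29.7% and 24.5% were. *Emb*, a partner of lactate transporters, rose by 2.90 and 2.12, *Slc2a1*, the glucose transporter of many body cells, by 1.62 and 1.33, and *Slc16a1* by 1.25 and 0.97, while *Slc2a8* fell by 0.81 and 0.85. In spermatozoa 5 of 12 were higher and 6 lower, where 36.6% and 35.8% of all genes were. *Emb* was at 3.39, *Slc2a1* at 2.90, *Slc16a3* at 2.71 and *Slc16a7* at -2.64. These stand beside macrophage marker sums that went from 25.1 to 32.0 up to 704 and 749, whose part was not tested.

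Other X-linked metabolic genes and their autosomal copies were compared beside *Pgk1* and *Pgk2*. Of 7 genes, 3 were called higher and 1 lower in *H2al2* WT round spermatids, where 34.4% and 35.9% of all genes were. In *H2al2* KO 4 were higher and 1 lower, where 36.5% and 38.4% were. *G6pd2*, the intronless copy of the X-linked *G6pdx*, rose by 2.06 and 2.17, much as *Pgk2* did, whereas *Pdha2*, the copy of *Pdha1*, fell by 0.74 and 0.82. *Gk2* and *Gykl1*, copies of the glycerol kinase gene *Gyk*, rose by 0.37 and 1.13 in *H2al2* WT. The X-linked *Pdha1* (0.48, adjusted p = 0.34), *G6pdx* (-0.03, adjusted p = 0.95) and *Gyk* (0.84, adjusted p = 0.064) were not called in *H2al2* WT, and *Gyk* was in *H2al2* KO (1.52, adjusted p = 0.0025). In condensing spermatids *Pdha1* rose by 1.45 and *G6pdx* by 2.26 in *H2al2* WT, with *Gyk* at 0.82 (adjusted p = 0.052). *Gk2* and *Gykl1* fell at this step, by 0.72 (adjusted p = 0.00038) and 0.65 (adjusted p = 0.00098), and by 0.67 and 0.48 in *H2al2* KO, while *Pdha2* (-0.26, adjusted p = 0.084) and *G6pd2* (-0.24, adjusted p = 0.19) were not called in *H2al2* WT. In spermatozoa all 3 X-linked genes rose, by 3.08 to 4.72, while *Pdha2*, *Gk2* and *Gykl1* fell by 2.09 to 2.27 and *G6pd2* rose by 0.48. The X-linked rises in condensing spermatids stand beside those of the Sertoli and Leydig marker sums, and in spermatozoa beside those of macrophage sums. In *H2al2* WT spermatozoa the Sertoli sums were 199 and 240 and the Leydig sums 11.5 and 12.0, below those of condensing spermatids. The part of those cells was not tested.

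Genes of the fibrous sheath, to which sperm glycolytic enzymes bind, rose with the first group. All 6 listed were called higher in round spermatids of either genotype, where 34.4% of all genes were in *H2al2* WT and 36.5% in *H2al2* KO. Their median log2 fold change was 2.22 in *H2al2* WT and 2.32 in *H2al2* KO, beside 2.03 and 2.16 for *Pgk2*. Among them were the anchoring proteins *Akap4* (2.74 and 2.89) and *Akap3* (2.20 and 2.30) and *Fscb* (2.74 and 2.52). *Cabyr* was at 2.23 in *H2al2* WT and *Ropn1* at 2.34 in *H2al2* KO. *Ropn1l* had the smallest rise, 0.30 and 0.41. At the step to condensing spermatids *Ropn1l* was the 1 of 6 called lower in *H2al2* WT (-0.50), and in *H2al2* KO *Fscb* was higher (0.74) and 4 were lower, led by *Ropn1l* (-0.54). Over all genes 28.3% were called higher and 21.8% lower in *H2al2* WT, and 29.7% and 24.5% in *H2al2* KO. In spermatozoa all 6 were called lower, where 35.8% of all genes were. They fell by 1.06 to 2.72, led by *Ropn1* and *Akap3* (-2.64), whereas *Pgk2* measured 0.01 and *Gapdhs* -0.47. The lists of this and the preceding paragraphs were counted with the same fits as the 10 genes, and no list was tested as a set.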

How the data were processed

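Total RNA of 21 purified germ cell fractions was sequenced after depletion of ribosomal RNA with a stranded kit, as paired reads of 75 bases. The deposited values are raw counts per gene: per the labels and methods, the authors aligned reads with STAR 2.7.11b to mm10 and counted uniquely aligned reads in exons by strand with HTSeq. The authors' later DESeq2 1.22.2 normalization is not in the files. The 5 summary rows naming no gene, 34.6% to 57.7% of all counts per library, were left out.

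Counts of each comparison were filtered with filterByExpr, scaled with TMM factors and tested with edgeR 4.0.16 (quasi-likelihood, R 4.3.3), with Benjamini-Hochberg adjustment over all tested genes and a call at an adjusted p under 0.05. The steps between pachytene, round and condensing cells were fitted on the 9 libraries of a genotype, which share the estimate of spread, and spermatozoa on those and condensing spermatids alone. The test was checked on simulated data. The change of the *H2al2* KO effect between stages was an interaction term. Germ-cell to somatic ratios were log2 ratios of counts plus 0.5 per exon length (GENCODE vM21) and were tested by exact permutation of libraries within genotype or stage. Library scaling (DESeq2 1.42.0 size factors, library size), filters, the Wald test, the replicate block, the mitochondrial genes and single libraries were varied. Same-numbered round spermatid libraries of the genotypes deviated together (correlations 0.374, 0.193 and 0.105) and were read as paired from the data, since the labels do not say what a number shares. At 3 counts the limit of detection was 0.366 to 1.08 CPM per library, which covers counting error only.

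All 10 genes were named in every comparison. Of each other list up to 4 called genes with the largest absolute log2 fold change were named, and all of the X-linked pairs. One gene that this rule names is not reported here. The 5 genes most like *Pgk2* and *Pgk1* were those of highest correlation of log2(normalized CPM + 1). Members and lists were chosen with earlier results of these data known.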

Additional observations from a re-analysis of the deposited data

How the results depend on the processing

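The number of the 10 genes called stayed within 1.5 times its value under each alternative, except for the pachytene genotype comparison (0 to 1 over the fits that leave out 1 library, 1 without wild-type replicate 3) and the change of the *H2al2* KO effect from pachytene to round (0 to 2, 2 without replicate 3). Calls of *Pgk1*, *Pgk2*, *Gapdhs*, *Hk1* and *Aldoart1* at the first step held under every alternative in both genotypes. With library size as the only scaling the median of all genes moved to -0.20 in *H2al2* WT and -0.15 in *H2al2* KO at the first step and to 0.11 in *H2al2* WT at the second. Of 1329 alternatives for single genes, 1218 kept side and direction, 42 lost a call, 13 gained one and 56 changed the sign of a value that was not called. Of 240 for the isoform ratios, 219 kept both. Depth limits *Eno1*, *Eno4* and *Pgk1* most, with 10, 21 and 22 counts in their lowest libraries. Replicate numbers paired no stage comparison (correlations from -0.27 to 0.37). With replicate means removed, the change of *Pgk2* to *Pgk1* from round to condensing, -0.19, gave permutation p = 0.04 (adjusted p = 0.04). That of *Aldoart1* to *Aldoa*, -0.18, gave permutation p = 0.025 (adjusted p = 0.028). Labels were still permuted without regard to replicate number, so these p-values are not exact and decide no call. Replicate numbers did not pair pachytene or condensing genotypes either, where the block gave 0 and 26 genes called. The block changed no call of a member other than *Ldha* at the first step in *H2al2* WT. The cause of these changes was not tested.

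Genes called between genotypes also varied with the setting. In pachytene spermatocytes 0 became 1 without a filter, 2 by the DESeq2 Wald test and 4 fitted on all 18 libraries. In round spermatids 2 became 1 with DESeq2 size factors, in a fit on all 18 libraries, and when the wild-type libraries 2 and 3 were summed, 6 by the Wald test and 28 without a filter. In condensing spermatids 1 became 13 by the Wald test and 27 without a filter. Without 1 library at a time the condensing count ran from 1 to 24.

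Leaving out 1 library at a time gave these log2 ranges for values that changed sign and were never called. For round against pachytene in *H2al2* WT they were *Ldhc* -0.043 to 0.12. For round against pachytene in *H2al2* KO they were *Gapdh* -0.25 to 0.15. For condensing against round in *H2al2* KO they were *Aldoart1* -0.13 to 0.10. For spermatozoa against condensing they were *Pgk2* -0.15 to 0.17 and *Aldoart1* -0.23 to 0.17. For *H2al2* KO against WT in pachytene spermatocytes they were *Pgk1* -0.18 to 0.23 and *Eno4* -0.0081 to 0.11. For the same in round spermatids they were *Gapdhs* -0.12 to 0.00074, *Ldha* -0.0075 to 0.053, *Ldhc* -0.038 to 0.015, *Eno1* -0.13 to 0.21 and *Hk1* -0.035 to 0.11. For the same in condensing spermatids they were *Pgk2* -0.24 to 0.021, *Gapdhs* -0.21 to 0.12, *Ldha* -0.052 to 0.12, *Ldhc* -0.0091 to 0.044, *Eno1* -0.17 to 0.066 and *Aldoart1* -0.13 to 0.28. For the difference of the *H2al2* KO effect between round and pachytene they were *Pgk1* -0.28 to 0.60, *Pgk2* -0.033 to 0.43, *Gapdh* -0.14 to 0.22, *Eno1* -0.0040 to 0.58 and *Aldoart1* -0.16 to 0.22. For the same between condensing and round they were *Pgk1* -0.29 to 0.21, *Pgk2* -0.064 to 0.073, *Gapdhs* -0.090 to 0.21, *Ldha* -0.062 to 0.13, *Eno1* -0.21 to 0.23 and *Eno4* -0.076 to 0.095. Among ratios, the genotype difference ran from -0.046 to 0.21 for *Gapdhs* to *Gapdh*, -0.036 to 0.0066 for *Ldhc* to *Ldha*, -0.067 to 0.076 for *Eno4* to *Eno1* (-0.021 with a pseudocount of 5) and -0.026 to 0.069 for *Aldoart1* to *Aldoa*, and the *Ldhc* to *Ldha* change to condensing spermatids from 0.061 to 0.12, with 0.10 and no call without any 1 wild-type round replicate.

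Other settings changed these signs. With library size only, *Ldhc* was -0.14 and -0.019 at the first step in *H2al2* WT and KO, *Aldoart1* 0.00015 at the second in *H2al2* KO and *Pgk2* -0.014 in spermatozoa. With at least 10 counts in every library, *Gapdh* was 0.042 and *Aldoart1* 0.047 at these steps in *H2al2* KO. Without a filter, *Pgk2* was -0.046 in spermatozoa and 0.016 in the change of the *H2al2* KO effect to condensing, and *Aldoart1* 0.020 in that to round. With the block, *Aldoart1* was 0.16 in spermatozoa and 0.017 between condensing genotypes (0.0040 on all 18 libraries). *Aldoart1* was 0.027 in the change to round with the summed replicates, chosen after seeing the data, and *Eno4* in that to condensing was -0.013 with them, -0.0065 with DESeq2 size factors and -0.0074 by the Wald test.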
